A study of Caenorhabditis elegans with 27 samples.

Results

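The *pup-1(0)* single mutant was set against wild type across every small RNA (sRNA) counted in adult *Caenorhabditis elegans*. The comparison used 9 of the 27 libraries of the series, 3 from *pup-1(0)* and 6 from wild type, and all 20150 counted sRNAs. These were 10062 siRNA entries, 9849 piRNAs, 236 miRNAs and 3 entries without a class in the annotation. *pup-1(0)* stands for the deletion allele *pup-1(tm1021)*, and wild type is the laboratory strain N2. The strains were raised in parallel at 22°C and harvested as whole hermaphrodites on day 1 of adulthood. The mutation was kept over the balancer chromosome *qC1gfp*, whereas N2 carries no balancer. The mutants harvested were homozygous offspring of homozygous mothers and so had neither maternal nor zygotic PUP-1 product (M-Z-). RNA was treated with RNA 5′ polyphosphatase, so that sRNAs with a 5′ triphosphate could be cloned. Another strain without *pup-1*, the double mutant *pup-1/-2(om129)* [*pup-1/-2(0)*, 3 libraries], was used for a direct contrast between mutants, taken from the same fit of all 27 libraries. Each mutant was run beside a subset of the wild-type replicates, but the labels do not say which, and all 6 were used here.

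PUP-1, also called CID-1 or CDE-1, is a poly(U) polymerase that adds uridines to the 3′ ends of RNAs. In the germline it associates with EGO-1, an RNA-directed RNA polymerase (RdRP) that makes siRNAs antisense to mRNAs, many of which load onto the Argonaute CSR-1. An siRNA entry here is the sum of reads antisense to the coding sequence of 1 gene, so that "the *xdh-1* siRNAs" are small RNAs that target *xdh-1* and not its mRNA. miRNAs and piRNAs are encoded in the genome and bind other Argonautes. Reads were counted whatever their 3′ tail, so that these values measure abundance and not uridylation. In whole animals, fewer cells of a type cannot be told apart from less RNA per cell.

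Totals ran from 1645733 to 8253869 counts per library in *pup-1(0)* and from 2054529 to 12560105 in wild type. Scaled to these raw totals, a floor of 3 counts corresponded to 0.363–1.82 CPM (counts scaled to library size) in *pup-1(0)* and 0.239–1.46 CPM in wild type. The CPM and floors given below use TMM-scaled library sizes instead. On that scale the floor of 3 counts averaged 0.892 CPM in *pup-1(0)* and 0.788 CPM in wild type. In wild-type replicate 1 it stood at 2.12 CPM. Such a floor limits what can be seen among rare sRNAs. Wild-type replicate 1 stood apart from the other libraries, with a median absolute log2 deviation of 0.645 from the rest of its group, against 0.226–0.412 for the other wild-type libraries. Results that rest on this library are given with and without it.

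The *pup-1* gene itself (listed as *cid-1*, WBGene00019629; chromosome III of WBcel235, 5173922–5180507) was targeted by siRNAs in both strains. These stood at 1171, 1128 and 1059 CPM in *pup-1(0)* and at a lowest, median and highest of 954.0, 1186 and 1559 CPM in wild type. The ranges overlapped, and the log2 fold change of -0.12 (SE 0.12) was not significant (edgeR, adjusted p = 0.461). siRNAs over the whole coding sequence do not report on the deleted segment, so that the targeted allele was not checked by these counts. The siRNAs of *pup-3*, which encodes another poly(U) polymerase, stood at 7.44, 11.4 and 9.99 CPM in *pup-1(0)* and at a lowest, median and highest of 34.5, 51.5 and 87.0 CPM in wild type. All 3 mutant libraries lay below all 6 wild-type libraries (log2 fold change -2.56, SE 0.26, edgeR adjusted p = 4.42e-08).

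Of the 20150 sRNAs, 9645 had enough counts to be tested, comprising 7184 siRNA entries, 2302 piRNAs, 157 miRNAs and 2 entries without a class. An sRNA was called differentially abundant (DA) where its edgeR adjusted p lay below 0.05 and its level changed by more than 1 unit on the log2 scale in either direction. DA sRNAs made up 21% of those tested. Among siRNAs, 664 rose (9.24% of those tested) and 1179 fell (16.4%). The rises were mostly modest, with a median log2 fold change of 1.35, and 76 of them exceeded 4-fold. The falls were deeper, with a median of -1.997, and 589 exceeded 4-fold. The siRNAs that rose had a median wild-type level of 55.7 CPM, against 12.9 CPM for those that fell and 23.7 CPM for all tested. All 3 *pup-1(0)* libraries lay above the wild-type range for 604 of the 664 rises and below it for 797 of the 1179 falls. Over all tested siRNAs, 19% lay wholly above and 15.6% wholly below.

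Fewer piRNAs and miRNAs moved. Of the piRNAs, 52 rose (2.26%) and 113 fell (4.91%), and of the miRNAs, 2 rose (1.27%) and 13 fell (8.28%). The share of counts that each class took did not pass the test in *pup-1(0)* against wild type. siRNAs took 68.0%, 75.2% and 79.7% of counts in the *pup-1(0)* libraries, and a lowest and highest of 53.0% and 77.1% in wild type. The difference in mean share was 8.52 percentage points (two-sided exact permutation test over 84 splits, p = 0.190, adjusted p = 0.286 over 3 classes). The smallest p that this test can give is 0.0119.

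**Figure D1:**
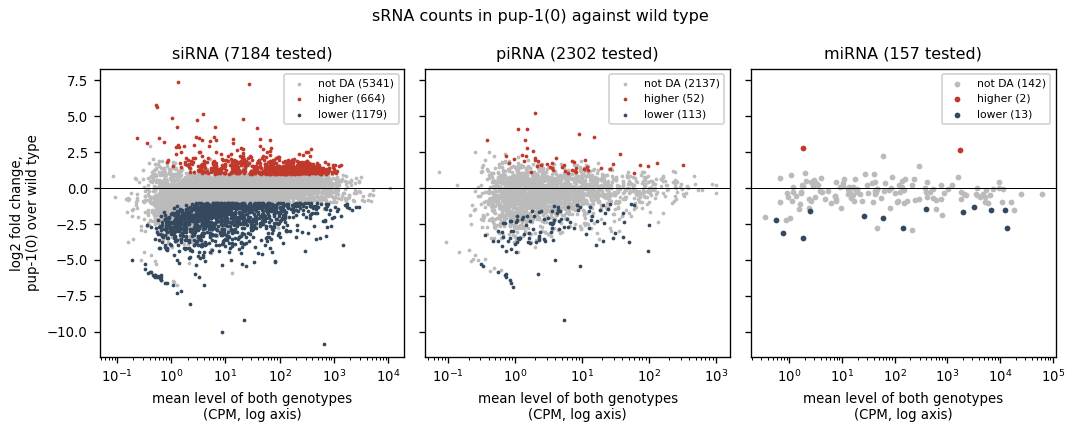
Log2 fold change of each tested sRNA in *pup-1(0)* over wild type (vertical axis) against its mean level in both genotypes (horizontal axis, CPM, log scale), in a panel for each class. Each point is 1 sRNA, colored where DA. Among siRNAs the rises gather at higher levels and stay close to 0, whereas the 1179 falls reach further from 0.

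The siRNAs with the 10 largest rises and falls were taken from DA entries with a mean of at least 10 CPM in either strain and all 3 mutant libraries outside the wild-type range. Their lack of overlap therefore follows from this choice. The largest rise was that of the siRNAs of *xdh-1* (chromosome IV, 14401114–14412894), which encodes xanthine dehydrogenase, an enzyme of purine breakdown. They stood at 44.0, 74.2 and 42.8 CPM in *pup-1(0)*, and at a lowest, median and highest of 0, 0.239 and 1.41 CPM in wild type. Every mutant library was far above every wild-type library (log2 fold change 7.28, SE 0.60, edgeR adjusted p = 2.10e-09). The *xdh-1* siRNAs were also rare in the double mutant, which likewise lacks *pup-1*, at 0.886 ± 1.03 CPM (SD, n = 3). The single mutant exceeded the double mutant with a log2 fold change of 5.89 (edgeR adjusted p = 2.28e-05). The mean was 0.360 CPM in the *pup-2(0)* and 0.838 CPM in the *pup-3(0)* single mutants.

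*dpy-1*, a gene required for normal body shape, had siRNAs at 44.0, 85.1 and 84.1 CPM in *pup-1(0)* and at a lowest, median and highest of 1.39, 4.43 and 6.35 CPM in wild type (log2 fold change 4.21, edgeR adjusted p = 6.18e-08). Those of *cfap-36*, which encodes a homolog of a cilia- and flagella-associated protein, stood at 65.1, 100.3 and 67.6 CPM in *pup-1(0)* and at 2.37, 7.22 and 13.4 CPM (lowest, median and highest) in wild type (log2 fold change 3.43). Those of *wdr-62*, which encodes a WD-repeat protein, stood at 125.8, 47.2 and 52.6 CPM in *pup-1(0)* and at 6.31, 7.91 and 16.6 CPM in wild type (log2 fold change 2.92). None of these 3 genes had a mutant library within the wild-type range. The other 6 of the 10 largest rises were those of genes named only by sequence, *F56B3.6* (log2 fold change 4.85), *Y41E3.19* (4.25), *Y65A5A.1* (3.44), *W04E12.9* (3.36), *Y51A2D.8* (3.12) and *R12B2.13* (2.80). Among them *W04E12.9* siRNAs stood at 132.0, 101.9 and 133.4 CPM in *pup-1(0)* and at 8.87, 10.6 and 21.2 CPM (lowest, median and highest) in wild type. Those of *Y65A5A.1* were spread more widely, at 8.68, 48.4 and 18.8 CPM in *pup-1(0)* and at most 4.23 CPM in wild type. These siRNAs were higher still in the double mutant, at 79.8 ± 54 CPM (SD, n = 3; log2 fold change -1.61 for *pup-1(0)* over *pup-1/-2(0)*, edgeR adjusted p = 0.0395).

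The deepest falls came from 4 neighboring genes at the right end of chromosome V (18438381–18465426). The siRNAs of *ZK262.8* stood at 0.620, 0.980 and 0.543 CPM in *pup-1(0)* and at a lowest, median and highest of 976.3, 1153 and 2321 CPM in wild type (log2 fold change -10.83, SE 0.51, edgeR adjusted p = 7.73e-13). *ZK228.1* had no count in any *pup-1(0)* library and 8.55, 19.1 and 23.3 CPM (lowest, median and highest) in wild type. Set against a floor of 3 counts per library (0.892 CPM on average in *pup-1(0)*), its siRNAs were at least 19.2-fold lower. On the same floor those of *ZK262.9*, which overlaps *ZK262.8*, were at least 49.5-fold lower, with 1 count in the 3 *pup-1(0)* libraries together. *ZK228.4* also had no count in *pup-1(0)*, against a mean of 4.5 CPM in wild type. The nearest tested gene to the left, *Y51A2B.5* (18389277–18391349), was not DA (log2 fold change -1.2, edgeR adjusted p = 0.471). This block was not depleted in every strain without *pup-1*. *ZK262.8* siRNAs averaged 633.7 ± 208.7 CPM (SD, n = 3) in the double mutant, 812.6 CPM in the triple mutant that also lacks *pup-3* and 530.5 CPM in the quadruple mutant. Conversely they were near absent in the other single mutants *pup-2(0)* (1.87 CPM) and *pup-3(0)* (0.846 CPM), but not in *pup-4(0)* (940.3 CPM). *pup-1(0)* was lower than the double mutant with a log2 fold change of -9.76 for *ZK262.8* (edgeR adjusted p = 1.26e-11).

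*F19G12.8* (chromosome X) gave another fall that the double mutant did not share. Its siRNAs stood at 3.10, 1.96 and 1.30 CPM in *pup-1(0)* and at a lowest, median and highest of 5.64, 72.1 and 102.1 CPM in wild type (log2 fold change -5.17, SE 0.60, edgeR adjusted p = 4.69e-07). The double mutant had 76.2 ± 28.5 CPM (SD, n = 3), and the contrast of *pup-1(0)* with it gave a log2 fold change of -5.37 (edgeR adjusted p = 2.05e-05). *F19G12.8* lies in a run of 4 neighboring tested genes on X, *ZK402.2*, *F19G12.4*, *F19G12.8* and *sedl-1* (1403744–1440261), all of which fell.

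Several other large falls did not pass the test against the double mutant. *lag-2* encodes the Notch ligand with which the distal tip cell keeps germline stem cells mitotic. Its siRNAs stood at 6.82, 7.51 and 5.10 CPM in *pup-1(0)* and at a lowest, median and highest of 26.8, 147.0 and 197.0 CPM in wild type (log2 fold change -4.43, SE 0.48, edgeR adjusted p = 1.45e-07). The double mutant averaged 4.38 ± 1.72 CPM (SD, n = 3), and *pup-1(0)* did not pass the test against it (edgeR adjusted p = 0.534). *kal-1*, the homolog of human anosmin, which shapes neurons and epidermis, had 3.10, 4.41 and 5.10 CPM in *pup-1(0)* and 38.0, 170.8 and 351.9 CPM (lowest, median and highest) in wild type (log2 fold change -5.15). *jmjd-3.3*, of the JmjC histone demethylase family, had 1.86, 3.59 and 4.78 CPM in *pup-1(0)* and 28.2, 90.1 and 147.2 CPM in wild type (log2 fold change -4.61). All *pup-1(0)* libraries lay below the wild-type range for each of these genes. *R02D5.1* (log2 fold change -5.04), *B0205.5* (-4.54) and *slc-17.5* (-4.98), of a solute carrier family, completed the 10 largest falls. Unlike the others in this paragraph, *B0205.5* was also DA and lower against the double mutant. *slc-17.5* siRNAs stood at 80.4 CPM in wild-type replicate 1 and at 12.7–16.1 CPM in the other wild-type libraries.

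**Figure D2:**
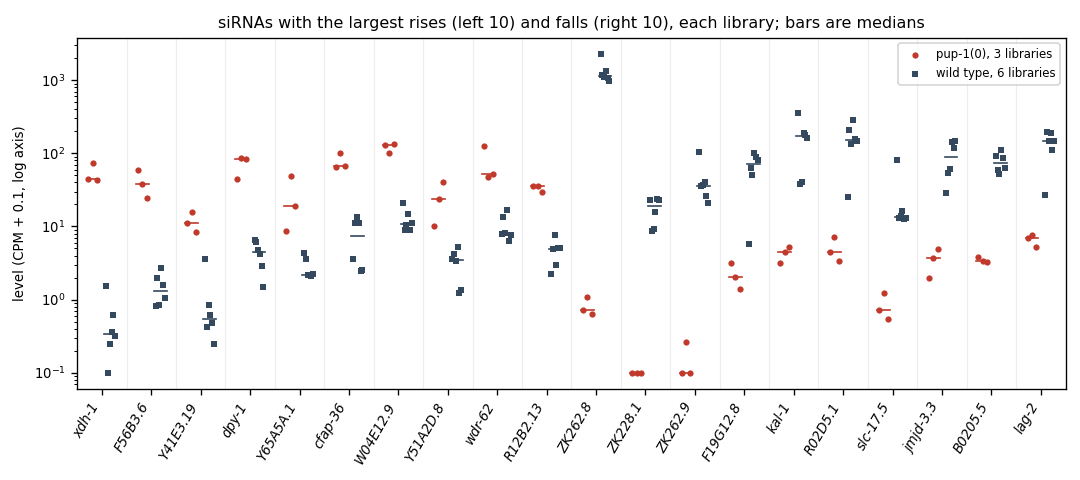
Level of siRNAs (CPM + 0.1, log axis) for the genes with the 10 largest rises and the 10 largest falls, with *pup-1(0)* libraries (circles) to the left of wild-type libraries (squares) for each gene and bars at the medians. *ZK262.8* falls to at most 0.980 CPM in *pup-1(0)*, against at least 976.3 CPM in wild type, and by the choice of genes no groups overlap.

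Heavily targeted genes moved in both directions. Of 95 genes with siRNAs over 1000 CPM (mean of both genotypes), 7 rose, 12 fell and 76 were not DA, against 25.7% DA among all siRNAs tested. Of the 76, 48 had an edgeR adjusted p under 0.05. Of the 95, 52 lay wholly outside the wild-type range, against 34.6% of all siRNAs tested. *rnh-1.3*, which encodes an RNase H, stood out among them with 259.7, 159.4 and 139.6 CPM in *pup-1(0)* and a lowest, median and highest of 1918, 2841 and 3736 CPM in wild type (log2 fold change -3.92, SE 0.37, edgeR adjusted p = 1.65e-08). The siRNAs of *daf-7*, which encodes a TGF-β ligand made by sensory neurons, stood at 1528, 1637 and 1271 CPM in *pup-1(0)* and at 2769, 3522 and 4417 CPM (lowest, median and highest) in wild type (log2 fold change -1.28). *cwn-2*, which encodes a Wnt ligand, gave a log2 fold change of -1.11. The 12 that fell also included *fbxb-98* (-1.5), *nhr-15* (-1.35) and *T25B6.3* (-1.91), of which *T25B6.3* alone of the 12 overlapped the wild-type range. The overlap came from wild-type replicate 1, at 156.6 CPM, whereas the other wild-type libraries stood at 2053–3179 CPM. The 7 that rose were *cec-10*, which encodes a chromodomain protein (log2 fold change 1.59), *cyn-12*, a cyclophilin gene (1.52), *glna-2*, a glutaminase gene (1.21), *ads-1*, which encodes an ether lipid synthesis enzyme (1.16), *F25B5.5* (1.06), *ptp-8* (1.61) and *rrf-3* (1.33). *cec-10* siRNAs stood at 1718, 2120 and 2169 CPM in *pup-1(0)* and at 474.7, 714.2 and 791.0 CPM (lowest, median and highest) in wild type. All 7 lay wholly above the wild-type range.

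The direction of change moved with the level and with the length of the target. At 100 to 1000 CPM, 315 of 1434 siRNA entries rose and 113 fell, with a median log2 fold change of 0.45. At 2 to 10 CPM, 87 of 1445 rose and 432 fell, with a median of -0.67. By coding length, 398 of the 1792 entries longer than 1824 bases (the 75th percentile) rose and 166 fell, with a median log2 fold change of 0.45. Among those of up to 729 bases (the 25th percentile), 54 of 1807 rose and 416 fell, with a median of -0.61. Level and length were linked, since 687 of the 1434 entries at 100 to 1000 CPM were in the longest class and 201 in the shortest. Within the 100 to 1000 CPM class alone, 248 of 687 in the longest class rose and 21 fell, and 11 of 201 in the shortest class rose and 23 fell. Within the 10 to 100 CPM class, 111 of 624 in the longest class rose and 46 fell, and 22 of 760 in the shortest rose and 167 fell. These counts describe the entries tested and carry no test of their own.

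Targets on the X chromosome took a smaller share of the siRNAs in *pup-1(0)*. X-linked genes took 4.02%, 4.10% and 3.78% of siRNA counts in *pup-1(0)*, and 5.52%, 6.17%, 6.33%, 8.01%, 6.70% and 6.94% in wild-type replicates 1 to 6. The groups did not overlap, and the means differed by -2.64 percentage points (two-sided exact permutation test, p = 0.0119, the smallest possible, adjusted p = 0.0238 over 6 chromosomes). Chromosome III, which carries *pup-1* and the balanced region, took 20.2 ± 0.483% in *pup-1(0)* (SD, n = 3) and 18.1 ± 0.775% in wild type (SD, n = 6), a difference of 2.17 percentage points with the same exact permutation p-values. Chromosome II also took more, by 0.746 percentage points (exact permutation p = 0.0238, adjusted p = 0.0357), and chromosome V less, by -0.651 percentage points (exact permutation p = 0.0119, adjusted p = 0.0238). Chromosomes I and IV did not pass the test (exact permutation p = 0.0952 and p = 0.310). These are shares of 1 total, so that a fall on one chromosome is a rise elsewhere.

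**Figure D3:**
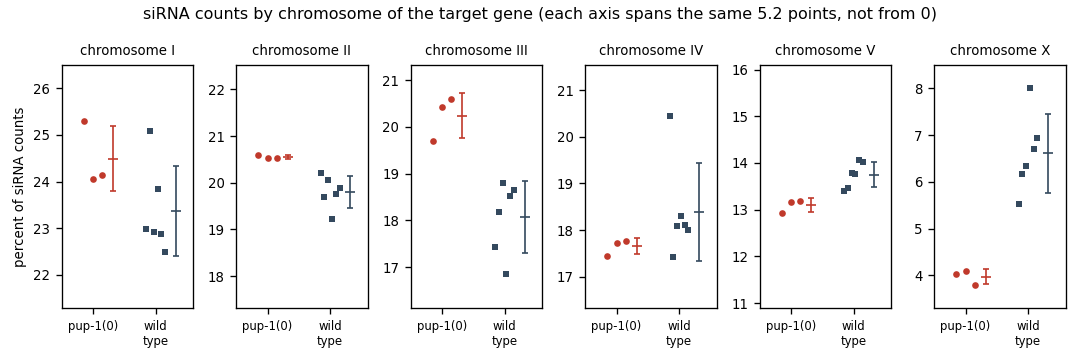
Percent of siRNA counts by chromosome of the target gene in each library, *pup-1(0)* (circles) left of wild type (squares), with the mean and SD beside the points. Every axis spans the same number of percentage points and does not start at 0. On X the 3 *pup-1(0)* libraries lie between 3.78% and 4.10%, below all 6 wild-type libraries.

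Counted gene by gene, 28.7% of 818 tested X-linked entries fell and 82 rose, with a median log2 fold change of -0.55. On chromosome V, 279 of 1290 fell and 116 rose (median -0.36). On chromosome II, which took a larger share of counts in *pup-1(0)*, 209 of 1327 fell and 100 rose (median -0.30), and on chromosome IV, 159 of 1145 fell and 102 rose (median -0.20). On chromosome I, 157 of 1366 fell and 137 rose (median -0.04), and on chromosome III, 140 of 1238 fell and 127 rose (median -0.06). The balance also differed with position along the autosomes. With each autosome divided into 3 equal segments, 288 of 2259 entries of the central segment rose and 272 fell (median log2 fold change 0.00), whereas in the outer segments 294 of 4107 rose and 672 fell (median -0.27). Chromosome I showed the widest gap, with 74 rises and 36 falls among 489 entries in its central segment, and 63 rises and 121 falls among 877 in its outer segments. Leaving out the 6 large gene families described below, which crowd the chromosome arms, left 282 rises and 258 falls of 2202 in the central segments and 287 rises and 573 falls of 3809 in the outer segments.

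DA targets of the same direction also lay side by side. Of 23 runs of at least 4 neighboring tested genes called in the same direction, 20 were runs of falls and 3 of rises. The longest was a run of 6 rises on chromosome I (9271479–9393095), comprising *hxk-1*, a hexokinase gene, *rpoa-2*, which encodes an RNA polymerase I subunit, *prom-1*, *phac-1*, *ppfr-1* and *rtcb-1*, the tRNA ligase gene, with log2 fold changes of 1.11–1.96. Another run of rises on chromosome III (5816232–5853269) held *sma-4*, a SMAD gene of the body size pathway, *mdt-15*, a Mediator subunit gene, *R12B2.13* and *ddx-23*. Runs of 5 falls lay on each of chromosomes I, II, IV and X. The one on chromosome I (14846476–14871365) held *maph-1.1*, *aex-5*, *str-245*, *unc-54* and *F11C3.1*, with log2 fold changes between -3.72 and -1.95. No count of runs for unordered genes was computed, and neighboring genes can share transcripts.

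Among siRNAs that target the sRNA machinery, those of Argonaute genes lay on one side of 0. All 12 tested genes for Argonautes, the proteins that bind sRNAs, lay above 0, with a median log2 fold change of 0.78 (-0.21 for all siRNAs), and 3 of them rose. *alg-1* and *alg-2* encode the miRNA Argonautes. *alg-2* siRNAs stood at 76.2, 106.0 and 80.9 CPM in *pup-1(0)* and at 15.1, 28.6 and 45.3 CPM (lowest, median and highest) in wild type (log2 fold change 1.55, SE 0.22, edgeR adjusted p = 4.63e-06). Those of *alg-1* stood at 36.0, 71.2 and 44.0 CPM in *pup-1(0)* and at 8.46, 16.6 and 29.6 CPM in wild type (log2 fold change 1.5). Those of *ergo-1*, an Argonaute of 26G siRNAs, stood at 195.9, 223.5 and 191.6 CPM in *pup-1(0)* and at 45.1, 88.0 and 95.3 CPM in wild type (log2 fold change 1.30). The summed Argonaute siRNAs overlapped between the strains, at 1934–2648 CPM in *pup-1(0)* and 1397–2051 CPM in wild type. The highest wild-type sum was that of replicate 1, and without it the wild-type sums reached 1891 CPM and the groups did not overlap.

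Among 16 genes for RdRPs, mutator proteins and the Dicer complex, 4 rose and 1 fell, with a median log2 fold change of 0.32 and 9 genes above and 7 below 0. The siRNAs of *rrf-3*, the RdRP of 26G siRNAs, stood at 1256, 1566 and 1555 CPM in *pup-1(0)* and at 428.2, 609.5 and 640.4 CPM (lowest, median and highest) in wild type (log2 fold change 1.33, SE 0.11, edgeR adjusted p = 2.29e-09). *rsd-2* and *rsd-6*, required for RNAi to spread, gave 1.40 and 1.59, and *drh-1*, a Dicer-related helicase gene, gave 1.16, which was no longer DA without wild-type replicate 4. *eri-6*, a helicase gene, was the one that fell, at 1.24, 2.12 and 3.15 CPM in *pup-1(0)* and 4.55, 6.98 and 10.6 CPM in wild type (log2 fold change -1.62, edgeR adjusted p = 0.00210). The sum over the 16 genes did not overlap, at 3970–4715 CPM in *pup-1(0)* and 2655–2961 CPM in wild type. Of 5 nucleotidyltransferase genes, 3 lay above and 2 below 0. *gld-2*, which encodes a cytoplasmic poly(A) polymerase, rose (log2 fold change 1.30, edgeR adjusted p = 7.87e-07) and *pup-3* fell. Of 13 P granule genes, 8 lay above and 5 below 0, *meg-2* rose (1.67) and *meg-4* fell (-1.65). Both encode disordered proteins of these germline RNA granules.

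siRNAs to other germline regulators were mostly not DA. Of 21 germline RNA-binding and Notch regulators, *lag-2* fell and *pos-1*, which encodes a maternal RNA-binding protein, rose (log2 fold change 1.14, edgeR adjusted p = 3.04e-04). *pos-1* was no longer DA without wild-type replicate 1, wild-type replicate 4 or *pup-1(0)* replicate 1. Of 14 meiotic chromosome genes *him-17* alone rose, at 4.34, 5.23 and 5.65 CPM in *pup-1(0)* and 0.779, 1.58 and 4.99 CPM (lowest, median and highest) in wild type, so that the groups overlapped, and 14 of 19 alternative settings lost the call.

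siRNAs to nuclear pore genes formed the list with the largest share of rises. Of 16 tested, 6 rose, none fell, and the median log2 fold change was 0.77. Those of *npp-12*, a nuclear pore membrane protein gene, stood at 437.0, 504.5 and 485.6 CPM in *pup-1(0)* and at 116.1, 129.9 and 169.9 CPM (lowest, median and highest) in wild type (log2 fold change 1.82, SE 0.12, edgeR adjusted p = 5.57e-11). The others that rose were *npp-15* (1.43), *npp-6* (1.37), *npp-21* (1.30), *npp-22* (1.16) and *npp-13* (1.14). The summed siRNAs of the 16 genes did not overlap between strains, at 3704–4221 CPM in *pup-1(0)* and 1522–2109 CPM in wild type. Without wild-type replicate 1, 5 rose and 1 fell. The median wild-type level of the list, 107.5 CPM, was above that of all tested siRNAs (23.7 CPM). Of all siRNAs at 100 to 1000 CPM (mean of both genotypes), 22.0% rose, with a median log2 fold change of 0.45. In the longest class by coding length at that level, 36.1% rose, with a median of 0.80. The part of level and length in the nuclear pore values was not tested.

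siRNAs to cytosolic ribosomal protein genes went the other way. Of 48 tested, 24 fell, with a median log2 fold change of -1.07, and all 24 were *rpl* or *rps* genes of the large and small subunits. The sum over the list was 1185–1623 CPM in *pup-1(0)* and 1771–2495 CPM in wild type, without overlap. *rpl-11.2* changed most, at 3.72, 13.1 and 5.76 CPM in *pup-1(0)* and 21.5, 58.7 and 105.1 CPM (lowest, median and highest) in wild type. *rpa-4*, which the name pattern of the list also caught, rose (log2 fold change 1.18), though not without wild-type replicate 1 or *pup-1(0)* replicate 3. Mitochondrial ribosomal protein genes differed from this, with 1 fall (*mrpl-49*, -1.14) among 33 and a median of -0.37. That fall was lost without *pup-1(0)* replicate 3, and 2 genes fell without wild-type replicate 4. Among other housekeeping groups, 3 of 22 aminoacyl-tRNA synthetase genes rose (*lars-1*, 1.32, *gars-1*, 1.25, and *qars-1*, 1.08), and 2 of 18 proteasome genes rose (*pas-5*, 1.21, and *rpn-1*, 1.02), a share near that of all siRNAs. Without wild-type replicate 1, 2 synthetase genes rose and 2 fell, and 1 proteasome gene rose. The synthetase genes also had 1 or 2 falls without *pup-1(0)* replicate 1 or 2 or wild-type replicate 2 or 4, and the proteasome genes 1 rise without *pup-1(0)* replicate 2, where 1 also fell, or wild-type replicate 2 or 4. Of 21 translation factor genes, *eif-2A* rose (1.2) and *ife-4*, which encodes an isoform of the cap-binding protein eIF4E, fell (-3.43). The rise of *eif-2A* was lost without wild-type replicate 2, and 2 factors fell without *pup-1(0)* replicate 2. Chaperone genes were balanced, with 3 rises and 3 falls among 36 (6 rises without *pup-1(0)* replicate 1). *cct-4* rose (1.27) and *cct-8* fell (-1.41), although both encode subunits of the same cytosolic chaperonin. Histone genes had 3 rises and 3 falls among 25, led by *his-7* (2.99, highest library 2.61 CPM) and *his-8* (-2.74, highest library 2.93 CPM), both from families of near-identical copies whose reads cannot be assigned with confidence. The histone falls numbered 1 without *pup-1(0)* replicate 3 and 5 without any one of wild-type replicates 2, 4, 5 and 6. Of 5 tubulin genes, *tbg-1* (γ-tubulin) rose (1.28), and *tba-4* (-1.47) and *tba-2* (-1.07) fell, with 1 fall without *pup-1(0)* replicate 1 or 3. Of 12 cyclin and CDK genes, *cdk-12* rose (1.19), and *cdk-11.2* (-1.40) and *cdk-4* (-1.19) fell. *cdk-12* was no longer DA without wild-type replicate 1 or 4.

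Some targets with roles in the soma lost many siRNAs. *osm-3*, which encodes the homodimeric kinesin-2 motor of sensory cilia, had 116.5, 130 and 140.5 CPM in *pup-1(0)* and a lowest, median and highest of 858.4, 1051 and 2427 CPM in wild type (log2 fold change -3.31, SE 0.33, edgeR adjusted p = 4.78e-08). *klp-11* and *kap-1*, subunits of the partner kinesin-II, gave -1.66 and -1.30, of which *kap-1* lost its call without *pup-1(0)* replicate 3, and *bbs-1*, of the BBSome, gave -4.15. *osm-6*, an intraflagellar transport gene, rose (1.31), and so 4 of 13 cilia genes fell and 1 rose. The median of the list, 0.09, was on the other side of 0 from its sum, which was 1003–1142 CPM in *pup-1(0)* and 1812–3652 CPM in wild type. It turned to -0.23 with 6 factors of unwanted variation in the fit. Of 8 sarcomere genes, *lev-11* (tropomyosin) and *unc-54* (myosin heavy chain) fell. The median of this list, -0.26, was near that of all siRNAs, -0.21. Its sum was not lower in *pup-1(0)*, at 371.5–414.8 CPM, against 181.2–378.1 CPM in wild type. *unc-54* siRNAs averaged 4.09 ± 4.86 CPM in wild type (SD, n = 6), and the call was lost against wild-type replicates 1 to 3 alone. *lev-11* had 6.82, 5.72 and 6.73 CPM in *pup-1(0)* and 11.3, 35.1 and 55.6 CPM (lowest, median and highest) in wild type (log2 fold change -2.47, edgeR adjusted p = 2.97e-06). Of 22 cuticle collagen genes, 3 rose, led by *col-87* (2.37), and *col-97* fell (-1.65). The collagen sum was higher in *pup-1(0)* without overlap, at 2831–3401 CPM, against 1918–2465 CPM in wild type. Collagen falls numbered 4 without wild-type replicate 1 and 2 without *pup-1(0)* replicate 1 or any one of wild-type replicates 2 to 5, and 1 collagen gene rose without *pup-1(0)* replicate 2. Of 5 vitellogenin genes, *vit-6*, a yolk protein gene, rose (1.2), though not without any one of wild-type replicates 1, 2 and 3 or *pup-1(0)* replicate 2, and 2 rose without wild-type replicate 6.

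Sperm gene lists gave few DA calls and differed in the direction of their sums. None of 5 major sperm protein genes was DA, and 1 rose without *pup-1(0)* replicate 1 or wild-type replicate 5 or 6. Their median log2 fold change was -2.68, but their sum was higher in *pup-1(0)*, at 345.9–682.1 CPM, against 176.9–322.0 CPM in wild type, because *msp-152* held nearly all of it (517.3 ± 168.1 CPM in *pup-1(0)*, SD, n = 3, and 261.2 ± 57.6 CPM in wild type, SD, n = 6). Among 8 *spe* genes, *spe-10* was called lower from wild-type replicate 1 alone, which held 38.1 CPM against a wild-type median of 0.109 CPM, and the call was lost without it and without any one *pup-1(0)* library. Without wild-type replicate 3, 2 *spe* genes fell. Of the 8, 7 lay below 0 (median -0.67). Their sum was lower in *pup-1(0)* without overlap, at 51.4–59.5 CPM, against 70.0–100.8 CPM in wild type. The medians of both lists were above 0 with 6 factors of unwanted variation in the fit.

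The 6 large families that have expanded in nematodes had more falls than rises, with 124 falls and 13 rises among 375 tested entries and a median log2 fold change of -0.89. The other 6809 siRNA entries had 1055 falls and 651 rises, with a median of -0.18. Median wild-type levels ran from 2.09 CPM (C-type lectin genes) to 25.5 CPM (MATH and BATH genes), against 23.7 CPM for all siRNAs. In the families 33.1% fell, against 29.9% of all siRNAs at 2 to 10 CPM and 13.4% at 10 to 100 CPM (mean of both genotypes). The median log2 fold change of these levels was -0.67 and -0.10. The part of level in the family values was not tested. Copies within these families resemble one another, so that reads can be shared between members. F-box genes, which encode substrate adaptors for ubiquitin ligases, had 53 falls and 2 rises among 135 (median -1.07), and 1 rise without *pup-1(0)* replicate 2. Their summed siRNAs stood at 9023–10387 CPM in *pup-1(0)* and 14206–23102 CPM in wild type, without overlap. The falls numbered 35 against wild-type replicates 1 to 3 alone and 79 against replicates 4 to 6 alone. Nuclear hormone receptor genes had 28 falls and 4 rises among 78 (median -1.06). The rises numbered 1 without wild-type replicate 1 or 2 and 2 without replicate 4. Their sum was also lower without overlap, at 4172–4707 CPM in *pup-1(0)* and 5568–8041 CPM in wild type. The largest rise was *nhr-211*, at 6.82, 5.23 and 5.65 CPM in *pup-1(0)* and at most 0.587 CPM in wild type. *nhr-25*, which encodes a receptor needed for molting, had no count in *pup-1(0)* and 0.584, 1.26 and 2.12 CPM (lowest, median and highest) in wild type, at least 1.47-fold lower on the floor of 3 counts. Genes for cytochrome P450s and UDP-glucuronosyltransferases, the enzymes of detoxification, had 10 falls and 2 rises among 31 (median -1.19), but their sums overlapped, at 4242–5094 CPM in *pup-1(0)* and 4410–6587 CPM in wild type. *cyp-33C2* fell (log2 fold change -4.03, edgeR adjusted p = 7.41e-09), whereas *ugt-59* rose, at 1229, 1470 and 1492 CPM in *pup-1(0)* and 406.9, 487.5 and 565.9 CPM in wild type (1.51, edgeR adjusted p = 5.79e-10). Chemoreceptor genes, which encode G protein-coupled receptors of sensory neurons, had 19 falls and 4 rises among 65 (median -0.51), and their sums also overlapped, at 6253–7242 CPM in *pup-1(0)* and 6258–7489 CPM in wild type. C-type lectin genes, which serve in innate immunity, had 9 falls and no rise among 41 (median -0.48). Without wild-type replicate 1, 8 fell and 2 rose, without *pup-1(0)* replicate 3, 5 fell and 2 rose, and without *pup-1(0)* replicate 1, 1 rose. With 6 factors of unwanted variation 9 rose. Their sums stood at 827.1–1103 CPM in *pup-1(0)* and 1656–2702 CPM in wild type. MATH and BATH genes, which encode ubiquitin ligase adaptors, had 5 falls and 1 rise among 25 (median -0.51), against 16.4% falls among all siRNAs. The falls numbered 3 without *pup-1(0)* replicate 2 or 3 and 8 without wild-type replicate 2 or 3. Their sums stood at 2883–4246 CPM in *pup-1(0)* and 4408–9485 CPM in wild type. For each of these 6 families the median stayed below 0 with DESeq2 size factors, with total counts as the only scaling and with 6 factors of unwanted variation. These scalings moved the median of all sRNAs from -0.26 to -0.27, -0.16 and -0.08.

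**Figure D4:**
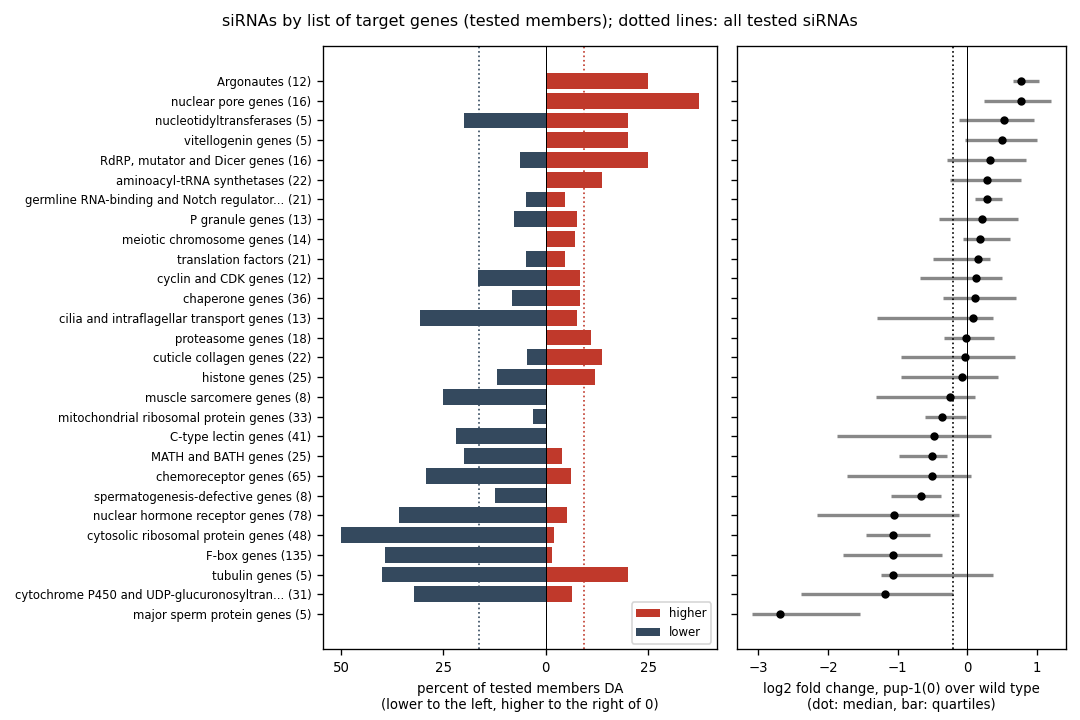
siRNAs by list of target genes, with the number of tested members in parentheses. Left, percent of tested members DA, with falls drawn to the left and rises to the right of 0. Right, the median log2 fold change in *pup-1(0)* over wild type (dot) with its quartiles (bar). Dotted lines mark all tested siRNAs (9.24% higher, 16.4% lower, median -0.21). Nuclear pore and Argonaute lists lie at the top, and ribosomal protein genes and the large families toward the bottom.

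Few miRNAs were DA, and most lay below 0, as did most siRNAs. Of 157 tested, 45 lay above 0 and the rest below it, as did 28 of the 32 with a mean over 1000 CPM in wild type. The firmest falls were those of *mir-262* and *mir-257*. *mir-262* (chromosome V, 18736683–18736790) stood at 47.7, 21.6 and 46.2 CPM in *pup-1(0)* and at a lowest, median and highest of 53.6, 271.0 and 369.5 CPM in wild type (log2 fold change -2.74, SE 0.49, edgeR adjusted p = 1.28e-04). *mir-257* (chromosome V, 17140668–17140769) stood at 14.9, 9.47 and 8.15 CPM in *pup-1(0)* and at 30.1, 40.4 and 52.9 CPM in wild type (log2 fold change -1.97, SE 0.34, edgeR adjusted p = 7.40e-05). Both lay wholly below the wild-type range, as did *mir-5592.1* and *mir-2209.1*, which reached at most 6.24 and 5.64 CPM in any of the 9 libraries compared. *mir-2209.1* lost its call without any one *pup-1(0)* library. Of all tested miRNAs, 3.18% lay wholly below. *mir-262* was also lower in *pup-1(0)* than in the double mutant (log2 fold change -2.19, edgeR adjusted p = 0.0147), and *mir-257* did not pass that test (0.14, SE 0.38, edgeR adjusted p = 0.853).

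The other falls were less stable. Wild-type replicate 1 was the highest wild-type library for 11 of the 13 miRNAs that fell and for 54 of all 157 tested. *mir-1*, the muscle miRNA, stood at 7317, 1209 and 2035 CPM in *pup-1(0)* and at 3100, 12243 and 91642 CPM (lowest, median and highest) in wild type, with overlapping groups (log2 fold change -2.75, edgeR adjusted p = 0.0368). Without wild-type replicate 1 the change was -1.62 (edgeR adjusted p = 0.123). *let-7*, which drives the larval-to-adult switch, stood at 837.4, 1027 and 930.8 CPM in *pup-1(0)* and at 871.9, 1953 and 9765 CPM in wild type (log2 fold change -1.69, edgeR adjusted p = 0.0388), and likewise lost its call without that library (-0.96, edgeR adjusted p = 0.0996). The calls of *mir-228*, a glial miRNA, of *mir-81* and of *mir-59* were lost in the same way. The *let-7* entry (chromosome X, 14743590–14745321) overlaps coding sequence, and miRNA reads were counted on both strands. Its counts can therefore hold reads other than those of the mature miRNA. Without wild-type replicate 1, 8 miRNAs fell and 1 rose, and 7 of the 13 falls were kept. *mir-61* (log2 fold change -1.30) was not among these 7, and *mir-785* (-1.19 without that library), *mir-2212* and *mir-5549* were. Each of these 3 lost its call without at least 1 of the *pup-1(0)* libraries. *mir-2212* and *mir-5549* had at most 2 counts in any *pup-1(0)* library and were at least 1.48-fold and 1.12-fold lower on the floor of 3 counts. Of the 2 rises, *mir-52* came from *pup-1(0)* replicate 1 alone, at 8555, 243.7 and 102.7 CPM in *pup-1(0)* and 198.2, 406.9 and 776.3 CPM (lowest, median and highest) in wild type. Its log2 fold change of 2.67 (edgeR adjusted p = 0.0405) turned to -1.43 without that library. *mir-8192* stood at 6.2, 2.45 and 0.543 CPM in *pup-1(0)* and at 0, 0.204 and 1.58 CPM in wild type, and the groups overlapped.

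**Figure D5:**
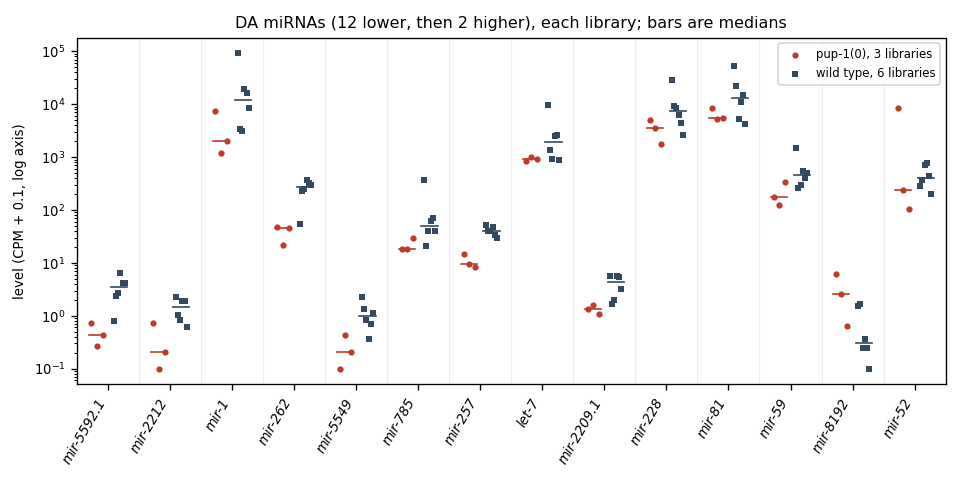
Level of DA miRNAs, with 12 of the 13 falls to the left and the 2 rises to the right (CPM + 0.1, log axis), and with *pup-1(0)* libraries (circles) to the left of wild-type libraries (squares) and bars at the medians. *mir-262* and *mir-257* separate the strains, whereas *mir-1*, *let-7*, *mir-228* and *mir-81* overlap and have 1 wild-type library far above the rest.

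miRNAs known from single tissues varied between libraries of the same strain. The summed oocyte and embryo miRNAs *mir-35* to *mir-42* (8 of 8 tested, none DA) stood at 89700, 27086 and 12167 CPM in *pup-1(0)* and ranged from 22718 to 93851 CPM in wild type. The 4 miRNAs of the late larval and adult soma, *let-7*, *mir-48*, *mir-84* and *mir-241*, summed to 7071–12970 CPM in *pup-1(0)* and 5837–114645 CPM in wild type, where the highest library other than replicate 1 held 20118 CPM. *mir-246*, of the gonadal sheath, was steady at 905.0–1182 CPM in *pup-1(0)* and 796.4–1406 CPM in wild type. The sensory neuron miRNAs *mir-124* and *lsy-6* summed to 1.85–12.4 CPM in *pup-1(0)* and 1.11–7.04 CPM in wild type. No marker sum was at 0 in any library, and the groups overlapped for every marker. The part of tissue makeup in the siRNA results was not tested.

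Most piRNAs were not DA, and the median log2 fold change of those tested was -0.36, against -0.21 for siRNAs. Named piRNAs were DA, with a mean of at least 2 CPM in either strain and all mutant libraries outside the wild-type range. The largest rise among them, *21ur-13572*, stood at 5.58, 3.43 and 2.61 CPM in *pup-1(0)* and at most 0.148 CPM in wild type. This is at least 4.91-fold higher on the floor of 3 counts. Better covered was *21ur-3878* (chromosome IV, 14377673–14377693), at 20.5, 30.9 and 33.6 CPM in *pup-1(0)* and at a lowest, median and highest of 0, 2.53 and 3.27 CPM in wild type (log2 fold change 3.56, SE 0.38, edgeR adjusted p = 9.24e-08). *21ur-9061* (chromosome IV, 15714007–15714027) stood at 15.5, 14.7 and 19.4 CPM in *pup-1(0)* and at 0, 1.25 and 2.82 CPM in wild type (log2 fold change 3.75, edgeR adjusted p = 2.51e-07). All mutant libraries exceeded all wild-type libraries for these piRNAs, as for *21ur-15653* and *21ur-10599*, which follows from the choice of named piRNAs. Among the falls, *21ur-15630* (chromosome IV, 2318114–2318134) stood at 0, 0.490 and 0.434 CPM in *pup-1(0)* and at 8.87, 18.9 and 26.8 CPM (lowest, median and highest) in wild type (log2 fold change -5.44, SE 0.59, edgeR adjusted p = 1.17e-07). *21ur-10687*, on chromosome II, stood at 1.24, 4.08 and 2.82 CPM in *pup-1(0)* and at 19.6, 40.4 and 61.1 CPM in wild type (log2 fold change -3.69, edgeR adjusted p = 1.93e-07). The falls of *21ur-9189* (-3.59), *21ur-12087* (-3.72) and *21ur-8542* (-3.58) rested on fewer reads, and *21ur-8542* lost its call without wild-type replicate 1.

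Most tested piRNAs come from clusters on chromosome IV. In the right cluster (13 Mb to the right end), 41 of 1985 rose and 90 fell, and in the left cluster (4.5–7 Mb), 4 of 237 rose and 9 fell. Of the 58 on other chromosomes, 7 rose and 10 fell, and of the 22 elsewhere on IV, none rose and 4 fell. piRNA loci that overlap coding sequence can collect reads of siRNAs, since piRNA reads were counted on both strands. Of 100 such piRNAs, 4 rose and 13 fell, against 48 and 100 of the other 2202. For 10 of the 13 that fell the host gene had tested siRNAs, and these fell for 9 of them. For 3 of the 4 that rose the host was tested, and its siRNAs rose in all 3. Among 52 piRNAs in coding sequence that were not DA and had a tested host, the host was not DA for 42. *21ur-9189* lies in the coding sequence of *Y43B11AL.1*, whose siRNAs fell. For *21ur-4396*, which rose, the log2 fold change was identical to that of its host *oac-38* (1.11086), so that these calls may not be separate. Such pairs also occurred among piRNAs that were not DA, as for *21ur-1121* and *Y105C5B.25* (1.05807 for each). The part of shared reads in the calls was not tested.

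Set directly against the double mutant, *pup-1(0)* differed in fewer sRNAs. Of 9645 tested, 397 were DA (4.12%), with 76 higher (0.788%) and 321 lower (3.33%) in *pup-1(0)*. Of these, 373 were siRNAs (5.19% of siRNAs tested), 13 were piRNAs (0.565%) and 10 were miRNAs (6.37%). The number depended on the libraries used and was 900 without *pup-1/-2(0)* replicate 1, 887 without wild-type replicate 1, which belongs to neither strain but entered the same fit, and 167 at the lowest. The cause was not tested. The difference in the number of DA sRNAs from the comparison with wild type was not tested, and the contrasts had different numbers of libraries. Of the 10 siRNAs with the largest rises over wild type, 6 were also higher in *pup-1(0)* than in the double mutant, namely those of *xdh-1* (5.89), *Y51A2D.8* (2.05), *dpy-1* (1.75), *F56B3.6* (1.75), *wdr-62* (1.48) and *R12B2.13* (1.08), and those of *Y65A5A.1* were lower. Of the 10 largest falls, those of *ZK262.8*, *ZK262.9*, *ZK228.1*, *F19G12.8* and *B0205.5* (-1.52) were also lower than in the double mutant. Of the 12 named miRNAs that fell, *mir-5592.1*, *mir-2212*, *mir-262*, *mir-785* and *mir-59* were lower in *pup-1(0)* than in the double mutant. All these sRNAs were chosen by their values in the same *pup-1(0)* libraries, a choice that favors the same direction in this contrast.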

How the data were processed

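sRNA libraries of 1-day adult hermaphrodites were trimmed with cutadapt, mapped with HISAT2 and counted with smalldisco by the authors (versions not given in the sources used here). The table the authors deposited holds raw counts per sRNA and library, with miRNA and piRNA reads taken on both strands and siRNA reads antisense to coding sequence summed per gene. How reads with several matches were placed is not given in the sources used here. Libraries were grouped by genotype, 3 of *pup-1(0)* and 6 of wild type. The study calls its replicates independent, but the labels do not say that they came from separate cultures, and p-values measure only the spread between these libraries.

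Counts of all 27 libraries were fitted with edgeR 4.0.16 (R 4.3.3; quasi-likelihood, robust, TMM scaling, genotype as the only term) after filterByExpr with a minimum count of 10, and Benjamini-Hochberg adjustment covered all 9645 sRNAs tested. CPM are counts divided by the TMM-scaled library size (the total over tested sRNAs times the TMM factor) and scaled to 1000000. The range of floors given with the library totals used the raw totals instead. Exact permutation tests, two-sided, were run on the shares. Symbols and positions come from Ensembl release 115 (WBcel235), in which 20147 of 20150 IDs were found, and miRNA names from RefSeq by coordinates (236 of 236). The gene models the authors counted on may differ from these. On simulated counts, 135 of 200 sRNAs changed by 2 on the log2 scale were called, with 5 false calls among 9179 sRNAs.

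Named are the siRNAs of *pup* genes that were tested, DA miRNAs (up to 12 per direction) and DA members of 28 gene lists. Also named are the 10 largest rises and falls of siRNAs (mean of at least 10 CPM in either strain). For piRNAs the 5 largest rises and falls were taken (mean of at least 2 CPM in either strain). These siRNAs and piRNAs were DA, with all mutant libraries outside the wild-type range. Genes among the most abundant targets, in runs, and further list members were chosen after their values were seen. The members and lists were chosen with earlier results of these data known. The alternatives were other scalings, DESeq2 1.42.0, other filters, fewer libraries, a replicate block, 6 factors of unwanted variation (after the study's methods) and leaving out each library. Sequences of the sRNAs and 3′ tails were not analysed here.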

Additional observations from a re-analysis of the deposited data

Results flagged for a closer look

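Of 106 values in the 6 wild-type libraries that were tested with Dixon's criterion, 23 had 1 library far from the others, and chance alone gives about 5% of such groups. In 22 of the 23 that library was wild-type replicate 1, which was also the library with the largest deviation over all sRNAs. No cause was tested.

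Wild-type replicate 1 was far above the other wild-type libraries for the siRNAs of *ZK262.8* (2321 CPM), *ZK262.9* (105.8 CPM), *slc-17.5* (80.4 CPM), *osm-3* (2427 CPM), *spe-10* (38.1 CPM), *srt-65* (14.8 CPM), *Y41E3.19* (3.53 CPM) and *xdh-1* (1.41 CPM). It was far below them for the siRNAs of *ergo-1* (45.1 CPM), *osm-6* (52.2 CPM) and *rpa-4* (19 CPM). Among miRNAs it stood highest for *mir-1* (91642 CPM), *mir-81* (53985 CPM), *mir-228* (29044 CPM), *let-7* (9765 CPM), *mir-59* (1516 CPM) and *mir-785* (361.8 CPM), all of which fell in *pup-1(0)*. Among piRNAs it stood highest for *21ur-8542* (21.2 CPM), *21ur-12087* (7.05 CPM) and *21ur-15653* (1.41 CPM). The 1.41 CPM of *21ur-15653* and of the *xdh-1* siRNAs in this library rested on 2 counts, below the floor of 3. Its piRNA share (5.72% of counts) and its share of siRNA counts on chromosome IV (20.4%) were also far above the others. The exception was *him-17*, for which wild-type replicate 3 held 4.99 CPM of siRNAs.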

How the results depend on the processing

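The numbers of all DA sRNAs and of DA siRNAs in *pup-1(0)* against wild type stayed within 1.5 times their values under every alternative run. Without each library in turn, DA siRNAs ran from 504 to 719 higher and from 922 to 1372 lower. piRNA and miRNA counts were less stable. DA piRNAs that were higher (52) numbered 106 with 6 factors of unwanted variation, 26 with a minimum count of 50, 23 in a fit of the 9 libraries alone, 13 in a fit of piRNAs alone and 124 against wild-type replicates 4 to 6, and 34–92 without 1 library. Those lower (113) numbered 229 with DESeq2, 71 with a minimum count of 50, 25 in the 9 libraries alone, 7 with piRNAs alone, 193 against wild-type replicates 4 to 6, 72 with total counts as the only scaling, and 37–200 without 1 library. DA miRNAs that were higher (2) numbered 4 against wild-type replicates 4 to 6, 1 with 6 factors, miRNAs alone, a minimum count of 50, no filter or total counts, 0 in the 9 libraries alone, against wild-type replicates 1 to 3 or with the replicate block, and 0–4 without 1 library. Those lower (13) numbered 20 with DESeq2, 3 with miRNAs alone, 4 in the 9 libraries alone, 23 against wild-type replicates 1 to 3 and 4–23 without 1 library. DA sRNAs against *pup-1/-2(0)* (397) numbered 664 with DESeq2, 251 with total counts, 999 with wild-type replicates 4 to 6 alone in the fit and 167–900 without 1 library, and leaving out *pup-1/-2(0)* libraries was chosen after seeing the data. The cause was not tested.

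Chromosome shares kept their direction. Against wild-type replicates 1 to 3 the differences were 0.563 (II), 2.10 (III), -0.450 (V) and -2.04 (X) percentage points, and against replicates 4 to 6 they were 0.929, 2.23, -0.851 and -3.25, where 3 against 3 libraries allow an exact permutation p of 0.1 at best. Without 1 library they ran over 0.631–0.828 (II), 1.92–2.44 (III), -0.719 to -0.569 (V) and -2.86 to -2.36 (X). Chromosome V lost its call without *pup-1(0)* replicate 1, and chromosome I (0.721–1.47) gained one without wild-type replicate 2. The piRNA share, 0.211 points higher in *pup-1(0)*, turned to -0.302 against wild-type replicates 1 to 3 and -0.199 without the 10 most abundant sRNAs, and ran from -0.829 to 1.00 without 1 library. *mir-52* turned to -1.43 without *pup-1(0)* replicate 1 and stood at 3.23 without *pup-1(0)* replicate 3.

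Replicate numbers did not pair the libraries. Deviations of same-numbered *pup-1(0)* and wild-type libraries correlated at -0.12, 0.18 and 0.04. With the replicate number as a block, 1778 sRNAs were DA, comprising 660 siRNAs higher and 983 lower, 35 piRNAs higher and 79 lower, and 0 miRNAs higher and 21 lower, and 393 sRNAs against *pup-1/-2(0)*. Of 97 named sRNAs, 18 lost their call without *pup-1(0)* replicate 2, 17 without replicate 3 and 12 without replicate 1, 13 without wild-type replicate 1 and 2–6 without each other wild-type library, 13 under the block, 12 with no filter or with either set of 3 wild-type libraries, and 7 with total counts or 6 factors of unwanted variation.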
